A study of Homo sapiens with 15 samples.

Results

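Total RNA from HEK-293 Trex cells that expressed UPF1 isoform 1 (UPF1-1) was compared with total RNA from HEK-293 Trex cells that expressed GFP, across all genes. The comparison takes 6 of the 15 libraries of the series, 3 of UPF1-1 total RNA and 3 of GFP total RNA, and 9325 of the 12261 genes in the deposited table passed the expression filter. HEK-293 Trex is an established human embryonic kidney line in which a transgene is switched on by doxycycline. The UPF1-1 cells carried CLIP-tagged UPF1 isoform 1 and the control cells carried GFP. Both received 200 ng/mL of doxycycline hyclate, so exposure to the drug is common to the 2 groups. The remaining groups were CLIP-tagged UPF1 isoform 2 (UPF1-2) total RNA, also with doxycycline, and RNA purified with either tagged isoform. The labels do not say whether a line was 1 clone, so the effect of a construct and differences between the lines cannot be told apart. Nor do they say whether replicates came from different cultures. The p-values therefore measure only how far these samples spread, which may be technical.

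UPF1 is an RNA helicase at the centre of nonsense-mediated decay (NMD), the pathway that degrades mRNAs on which translation stops too early. UPF2 and UPF3 proteins and the exon junction complex activate it, the kinase SMG1 phosphorylates it, and SMG5 and SMG6 help pass the mRNA to cutting, decapping and deadenylation enzymes. Besides faulty mRNAs, NMD acts on normal ones with upstream reading frames or introns behind the stop codon, among them several mRNAs of stress regulators, and UPF1 also takes part in the decay of replication-dependent histone mRNAs. Isoform 1 has the longer form of a regulatory loop in the helicase core, and isoform 2 the shorter.

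Values are TPM, transcript levels scaled to 1 fixed total in each library, and each gene is represented by 1 Ensembl transcript, so a change of the gene and a shift to or from that transcript cannot be told apart. Differences are UPF1-1 minus GFP on the scale log2(TPM + 0.5) after library medians were set equal, with the replicate number as a pair, and they understate changes of low genes. The listed genes held 13.3% to 17.8% of the TPM scale in the 6 libraries, and the authors' deposited mean of estimated counts per library had a median of 1149 over the fitted genes, with 256 and 5226 at the 10th and 90th percentiles. Replicate 3 stood apart in each total RNA group. Levels of replicates 1 and 2 of a group correlated at 0.99 or more, and those of replicate 3 with either at 0.95 or less. Of 13 markers of HEK-293 cells 10 were in the table, while 0 of 5 fibroblast, 0 of 3 liver, 0 of 3 endothelial and 0 of 3 muscle markers were. Of the HEK-293 markers INA was 0.41 lower and NEFL 0.23 lower in UPF1-1 (limma adjusted p 0.0031 and 0.041). Of 5 blood markers HBA1 alone was listed, at a mean of 3.45 TPM in UPF1-1 and 3.57 TPM in GFP. Of 4 epithelial markers 2 were listed. EPCAM was 0.66 lower and KRT19 0.24 higher in UPF1-1 (limma adjusted p 0.0021 and 0.046), and the part of these markers in the results below was not tested.

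UPF1, the induced gene, was checked first. It was at 3.24, 3.80 and 8.57 TPM in GFP replicates 1, 2 and 3 and at 106, 94.5 and 186 TPM in the UPF1-1 replicates. The groups did not overlap. The log2 difference was 4.46 ± 0.07 (SE; 22.0-fold), with an adjusted p of 5.68e-09 by limma, and the value can include RNA from the transgene.

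Across the transcriptome many genes moved by small amounts. Of 9325 genes fitted, 1507 passed an adjusted p of 0.05 by limma, which is 16.2%. There were 781 higher in UPF1-1 (8.38%) and 726 lower (7.79%). All 1507 had the same sign in the 3 pairs, and 691 had UPF1-1 and GFP libraries that did not overlap after centring. The calls were made from these same pairs, so both counts follow in part from the selection. Their shares over all fitted genes were not counted. The median log2 difference was 0.34 among genes called higher and -0.35 among genes called lower, against -0.01 over all genes. A 2-fold change was reached by 15 genes called higher and 4 called lower. The split depends on the scaling. With no centring 266 genes were called higher and 35 lower (88.4% higher), with upper quartiles set equal 638 and 976 (39.5%), and as reported 51.8% of the calls were higher. Without the replicate block 16 genes passed. Leaving out replicate 1, 2 or 3 of every group gave 589, 206 and 1141 calls. Without UPF1-1 replicate 1, 2 or 3 there were 897, 701 and 885, and without GFP replicate 1, 2 or 3 there were 435, 562 and 544.

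The differences were not spread evenly over the genome. Genes on chromosome 20 were higher in the UPF1-1 line almost without exception, and genes on chromosome 21 were lower. On chromosome 20, 173 of 235 fitted genes were called higher (73.6%) and 0 lower. Their median log2 difference was 0.37, a 1.29-fold higher level, and 227 of the 235 genes lay above 0. The medians of the single pairs were 0.36, 0.35 and 0.40. Chromosome 20 supplied 22.2% of all genes called higher. On chromosome 21, 0 of 88 genes were called higher and 33 lower (37.5%). The median there was -0.23, with -0.21, -0.24 and -0.22 in the single pairs, and 78 of the 88 genes lay below 0. On chromosome 18, 41 of 138 genes were called higher and 1 lower, with a median of 0.18. On chromosome 16, 83 of 449 were called higher and 12 lower, with a median of 0.08. Over the other chromosomes 457 of 8011 genes were called higher and 649 lower, with a median of -0.03. The grouping by chromosome was chosen after the values were seen, and it is given as a description with no test.

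**Figure D1:**
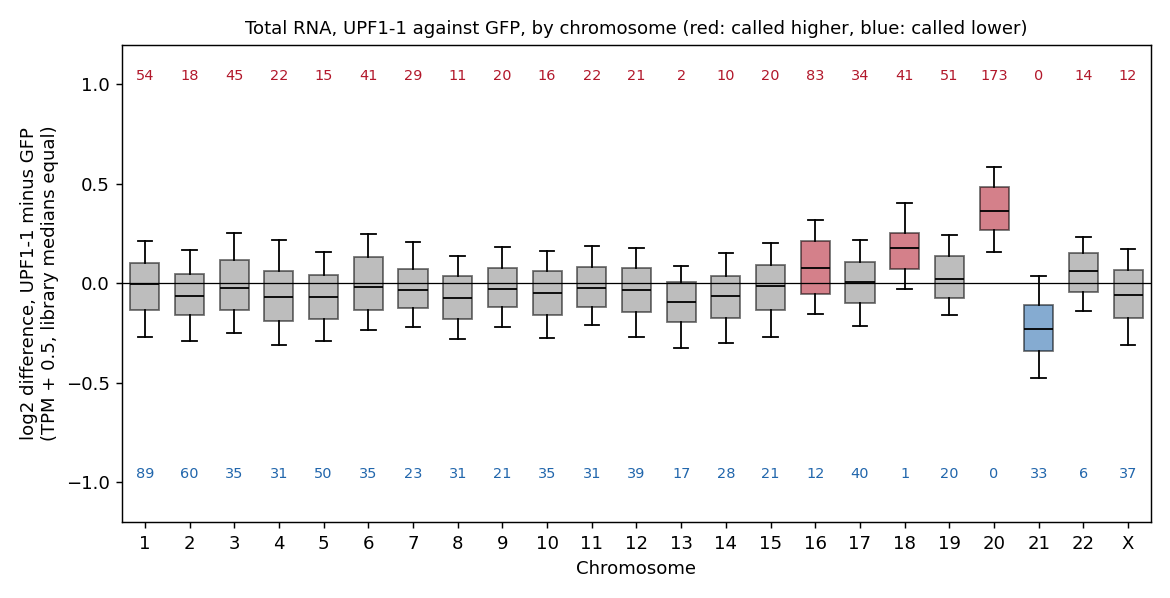
Log2 difference between UPF1-1 and GFP total RNA (y axis) for fitted genes on each chromosome (x axis); boxes span the quartiles, lines mark medians and whiskers the 10th and 90th percentiles, with numbers of genes called higher in red and lower in blue. Chromosome 20 has 173 genes called higher and 0 lower, and chromosome 21 has 0 higher and 33 lower.

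Along chromosomes 20, 21 and 18 every block median was on 1 side of 0, while on 3 others it covered a stretch. Genes were taken in the order of the RefSeq annotation of GRCh38.p14, in blocks of about 30 neighbours, and no positions are given because the authors' build was hg19. All 8 blocks of chromosome 20 had medians between 0.32 and 0.41, and the 3 blocks of chromosome 21 had medians between -0.27 and -0.21. The 5 blocks of chromosome 18 lay between 0.15 and 0.19, although block 3 was at -0.02 in pair 3. Chromosome 16 divided in its middle. The first 8 blocks had medians between -0.08 and 0.06, with 13 genes called higher and 11 lower. The last 6 blocks, from PAPD5 to DBNDD1, had medians between 0.12 and 0.31, with 65 of 179 genes called higher and 0 lower. On chromosome 4 the first 2 blocks, from ZNF876P to PACRGL, were at 0.22 and 0.12, with 20 of 62 genes called higher and 1 lower, and the other 7 blocks had medians between -0.14 and -0.02. On chromosome 3, 1 of 16 blocks, from EIF2B5 to CCDC50, stood at 0.23, with 12 of 29 genes called higher and 1 lower, and the others between -0.09 and 0.04.

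**Figure D2:**
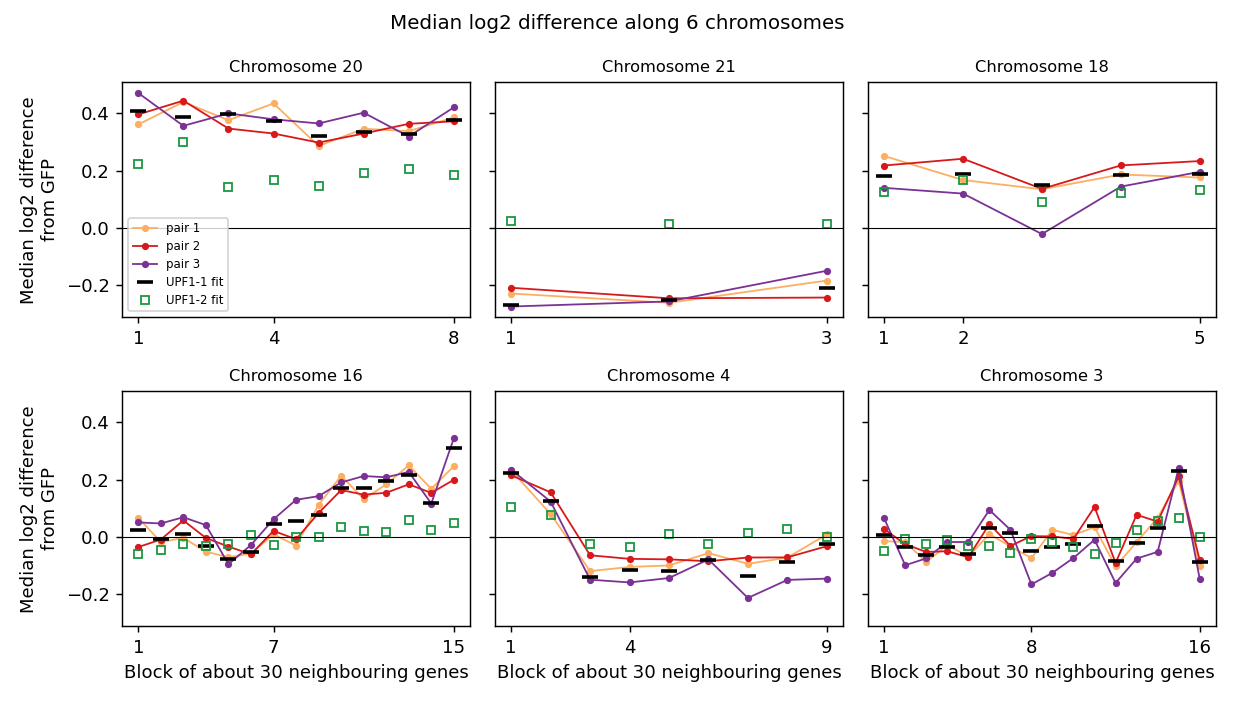
Median log2 difference from GFP (y axis) of blocks of about 30 neighbouring genes in annotation order (x axis) on 6 chromosomes; coloured lines are the 3 UPF1-1 pairs, black bars the UPF1-1 fit and green squares the UPF1-2 fit. Block 3 of chromosome 18 is at -0.02 in pair 3 and at 0.14 in the other pairs, while chromosome 20 blocks lie between 0.32 and 0.41 and the last 6 blocks of chromosome 16 between 0.12 and 0.31.

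In the UPF1-2 line the shifts on these chromosomes were smaller in size, with no test of the difference. Its difference from the same GFP libraries had a median of 0.19 on chromosome 20, 0.13 on chromosome 18 and 0.01 on chromosome 21, and of 0.02 to 0.06 in the last 6 blocks of chromosome 16. Both comparisons use the same GFP libraries, so the values stand side by side only. DNA copy number was not measured here, and line and construct cannot be told apart. When chromosome medians were set equal in each library, an alternative chosen after the data were seen, 1213 genes were called (620 higher and 593 lower), of which 998 were among the 1507 with the same sign. In the lists below, the location of called members on chromosome 20 or 21 is given. Members that were not called are counted without it. Setting chromosome medians equal does not remove a shift of a stretch, as on chromosomes 16, 4 and 3. The blocks of most single genes on those chromosomes are not given.

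By size, the rises were led by stress regulators and the falls by histone genes. Among genes with a mean of at least 5 TPM, the largest rises after UPF1 were RP3-324O17.4 at 1.62, TRIB3 at 1.55, PPP1R15A at 1.28, HIST1H3F at 1.27, HERPUD1 at 1.21, XBP1 at 1.19, CEBPB at 1.16 and DDIT3 at 1.15. They were followed by TNFRSF12A at 1.04, a TNF receptor family member, SRPR at 0.98, a subunit of the signal recognition particle receptor, ATF3 at 0.95 and the transcription factor gene NFIX at 0.94. The largest falls were HIST1H2BI at -2.13, HIST1H2AL at -1.18, ID2 at -0.85, FABP5P7 at -0.84, HIST1H2BG at -0.81, SNX29P2 at -0.77, FABP5 at -0.74, ULK2 at -0.73, CWF19L1 at -0.72, GK at -0.70, HIST1H2AE at -0.61 and TTC37 at -0.60. FABP5 encodes a fatty acid binding protein and FABP5P7 is a pseudogene of it, so reads could be split between them. Of these 24 genes, 21 passed with each replicate number or library left out in turn. ULK2 lost its call in 6 of 9 such fits, GK in 2 and SNX29P2 in 1. Of the 15 genes called at least 2-fold higher, 5 lie on chromosome 20. RP3-324O17.4, named MCTS2 in RefSeq, lies inside the span of HM13, itself at 1.25, so the separate values of this pair are uncertain. With chromosome medians set equal RP3-324O17.4 was at 1.25 and HM13 at 0.89, and both passed.

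**Figure D3:**
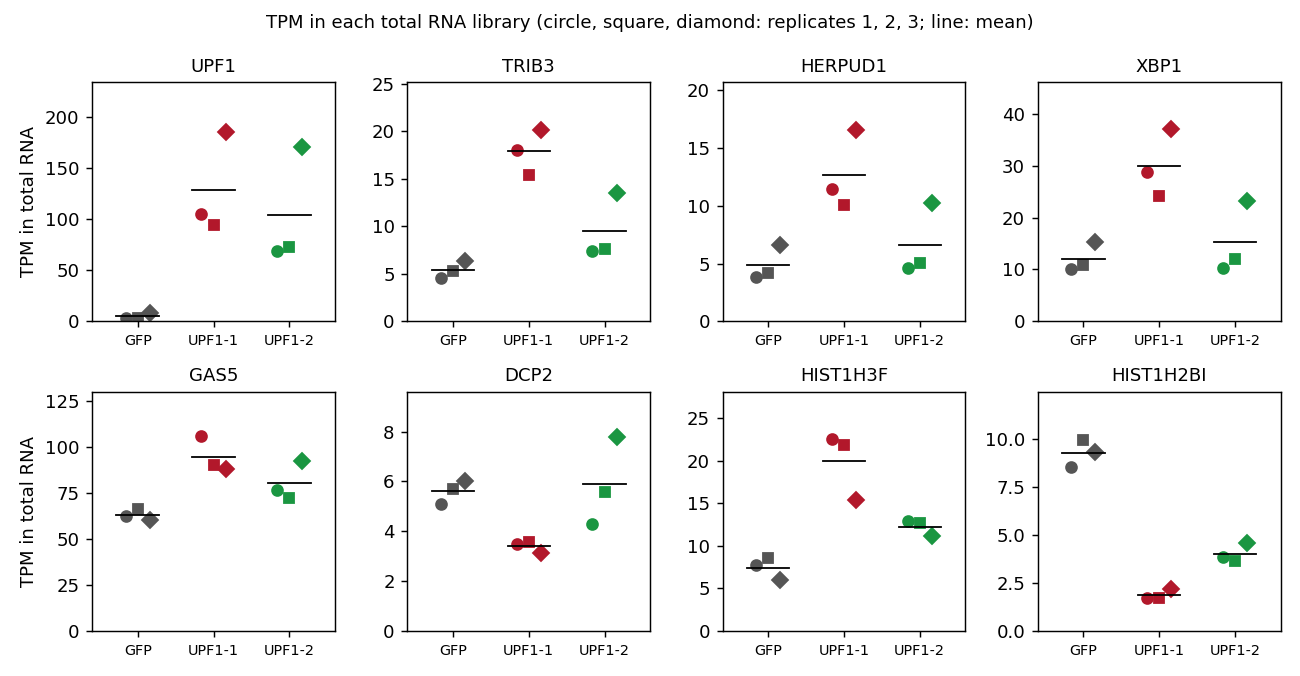
TPM (y axis, from 0) in each total RNA library of GFP, UPF1-1 and UPF1-2 cells (x axis) for 8 genes; circles, squares and diamonds are replicates 1, 2 and 3 and lines are means. In each panel the UPF1-1 points lie apart from the GFP points, with UPF1 at 94.5 TPM or more against 8.57 or less and HIST1H2BI at 2.19 TPM or less against 8.55 or more.

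The integrated stress response is the programme in which kinases phosphorylate the initiation factor eIF2, general translation falls, and ATF4 and its targets are made. Of 18 fitted regulators 9 were called higher (50.0%) and 2 lower (11.1%), beside 8.38% and 7.79% of all genes. The median of the regulators was 0.30, against -0.01 over all genes. TRIB3, a pseudokinase induced by ATF4 and CHOP, was at 4.62, 5.30 and 6.32 TPM in GFP and at 18.1, 15.5 and 20.2 TPM in UPF1-1. It rose by 1.55 ± 0.06 (SE, limma adjusted p 6.99e-06). PPP1R15A, which encodes the GADD34 subunit that directs removal of the phosphate from eIF2, was at 1.94, 1.81 and 6.64 TPM in GFP and at 6.56, 5.37 and 16.1 TPM in UPF1-1. Replicate 3 of GFP lay above the first 2 UPF1-1 libraries as measured, and the centred groups did not overlap. PPP1R15A rose by 1.28 ± 0.07 (adjusted p 2.70e-05). DDIT3, which encodes CHOP, was at 7.83, 8.95 and 6.79 TPM in GFP and at 21.7, 19.0 and 16.8 TPM in UPF1-1, and every UPF1-1 library lay above every GFP library. ATF3, a transcription factor induced by ATF4, was at 3.52, 3.80 and 6.92 TPM in GFP and at 8.52, 7.64 and 14.6 TPM in UPF1-1. CEBPB, the gene of the transcription factor C/EBP beta, was at 2.41, 2.56 and 4.03 TPM against 6.94, 6.14 and 10.4 TPM.

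ATF4 itself, the central transcription factor of this response, rose by 0.30 (adjusted p 0.0067), less than the genes above. SESN2, which encodes a sestrin that restrains mTORC1, rose by 0.34. CHAC1, a glutathione-degrading enzyme, and STC2, a secreted stanniocalcin, each rose by 0.35. Of the eIF2 kinase genes, EIF2AK4 (GCN2) fell by 0.27 and EIF2AK2 (PKR) by 0.31, while EIF2AK1 was 0.15 lower and did not pass (adjusted p 0.12). TRIB3 and CEBPB lie on chromosome 20. With chromosome medians set equal they were at 1.19 and 0.79, and 9 members of the list were called higher and 1 lower. Over all genes 8.38% were called higher and 7.79% lower. Among enzymes and carriers of amino acids, many of which are ATF4 targets, 3 of 22 were called higher (13.6%) and 1 lower (4.55%). Their median was 0.03. The highest of them was SLC3A2, the heavy chain of amino acid exchangers, at 0.51. Of 20 cytosolic tRNA synthetases, which charge tRNAs with amino acids, NARS (0.43, on chromosome 18), AARS (0.34, on chromosome 16) and MARS (0.26) were called higher and EPRS (-0.32) and VARS (-0.29) lower. With no centring 5 of the stress response regulators passed as higher and 0 as lower, and 0 tRNA synthetases passed in either direction.

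Genes that work in the endoplasmic reticulum (ER), where secreted and membrane proteins are folded, were more often called higher than lower in each of 5 lists. Over the 5 lists 30 of 81 fitted members were called higher (37.0%) and 3 lower, with a median of 0.16, beside 8.38% and 7.79% of all genes. Without replicate 1 of every group 16 members were called higher, without replicate 2 there were 11, and with no centring 17. XBP1, whose mRNA is spliced by the stress sensor IRE1 into that of a transcription factor, was at 10.1, 10.8 and 15.2 TPM in GFP and at 28.7, 24.2 and 37.0 TPM in UPF1-1. Every UPF1-1 library lay above every GFP library, and XBP1 rose by 1.19 ± 0.07 (adjusted p 2.70e-05). The table does not give its spliced and unspliced forms apart. The sensor and transcription factor genes had 3 of 8 called higher and 1 lower. Besides XBP1 these were CREB3L4 (0.44) and CREB3 (0.32), transcription factors cut free from membranes, and MBTPS2 (-0.30), a protease that cuts them.

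Among ER chaperones 7 of 16 were called higher and 0 lower, with a median of 0.20. MANF, a secreted protein of the stressed ER, was at 2.91, 3.62 and 7.46 TPM in GFP and at 8.02, 6.85 and 13.2 TPM in UPF1-1, with no overlap after centring, and rose by 0.89. PPIB, a prolyl isomerase, rose by 0.63 and DNAJB9, a co-chaperone, by 0.61. HSPA5, which encodes BiP, the main chaperone of the ER, was at 0.645, 0.725 and 1.82 TPM in GFP and at 1.37, 1.29 and 2.76 TPM in UPF1-1. Each pair was higher in UPF1-1, although GFP replicate 3 lay above the first 2 UPF1-1 libraries as measured, and HSPA5 rose by 0.49 (adjusted p 0.0067). SDF2L1 rose by 0.47, and CRELD2 and DNAJB11 by 0.41 each. DNAJB11, like MANF, lies on chromosome 3, of which 1 block was shifted, and the block of neither gene is given here.

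Genes of disulfide formation had 6 of 14 called higher and 0 lower, led by the protein disulfide isomerase PDIA4 at 0.70 and TXNDC5 at 0.52. The third, TMX4 at 0.34, lies on chromosome 20 and was not called with chromosome medians set equal. In the import machinery 9 of 23 were called higher and 1 lower, with a median of 0.15. These included both subunits of the signal recognition particle receptor, SRPR (0.98) and SRPRB (0.60), the signal peptide peptidase HM13 (1.25, on chromosome 20), the signal peptidase subunit SEC11C (0.48, on chromosome 18) and the translocon-associated SSR2 (0.47). SEC62, a translocation factor, fell by 0.37. SRPR was at 2.87, 3.34 and 5.63 TPM in GFP and at 6.98, 6.99 and 12.5 TPM in UPF1-1, with no overlap.

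Of 20 genes of ER-associated degradation, which returns misfolded proteins to the proteasome, 5 were called higher and 1 lower. HERPUD1, an adaptor of the membrane ubiquitin ligase, was at 3.84, 4.19 and 6.62 TPM in GFP and at 11.5, 10.0 and 16.6 TPM in UPF1-1. It rose by 1.21 ± 0.06 (adjusted p 1.28e-05), and every UPF1-1 library lay above every GFP library. HERPUD1 lies on chromosome 16 and was at 1.11 with chromosome medians set equal, which does not remove a shift of part of a chromosome. VIMP and SELK, selenoproteins of this pathway, rose by 0.65 and 0.38. UBE2G2, a ubiquitin-conjugating enzyme on chromosome 21, was at -0.39 and did not pass with chromosome medians set equal (adjusted p 0.074). Vesicle coat genes between ER and Golgi had 4 of 27 called higher and 1 lower. SEC23B on chromosome 20 was at 0.70, and at 0.34 with chromosome medians set equal, where it passed (adjusted p 0.027). In contrast, 0 of 20 cytosolic chaperones were called higher and 7 lower.

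**Figure D4:**
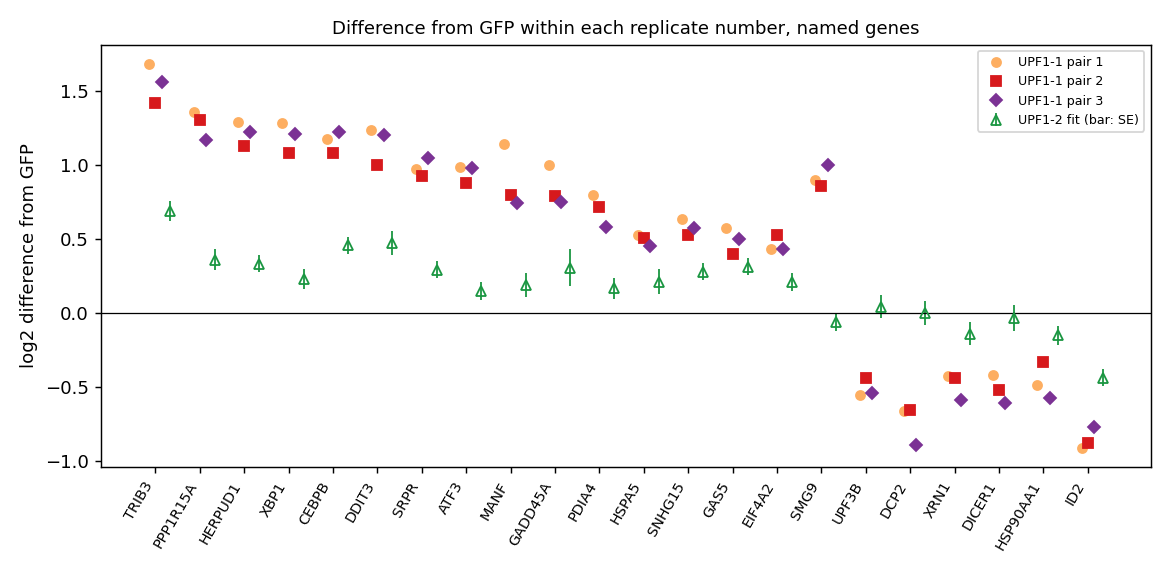
Log2 difference from GFP (y axis) within each replicate number for 22 named genes (x axis), with the UPF1-2 fit and its standard error as triangles. For TRIB3, HERPUD1 and XBP1 the UPF1-1 pairs lie above the UPF1-2 value, and for DCP2 and UPF3B all 3 pairs lie below 0.

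The promoters of some of these genes carry sequence elements of the ER stress response, shown here because their genes were called higher together. RefSeq promoter windows of GRCh38.p14, 250 bases before to 50 bases after the start site, were matched by symbol for 7315 of the fitted genes. ERSE, the ER stress response element (CCAAT, 9 bases of any kind and CCACG, either strand), was found in 9 of the 7315 windows (0.123%), in 4 of 626 windows of genes called higher (0.639%) and in 0 of 554 of genes called lower. ERSE-II (ATTGG, 1 base of any kind and CCACG, either strand) was found in 10 of all windows (0.137%), in 4 of genes called higher (0.639%) and in 1 of genes called lower (0.181%). The ATF4-CHOP composite element (TGATGNAAN, either strand) was found in 1.61% of all windows, 2.40% of genes called higher and 1.08% of genes called lower. None of the 8 windows with ERSE or ERSE-II among genes called higher lies on chromosome 20. Stretches around the matches follow, 5′ to 3′ in the direction of transcription, with the fixed letters of the elements in capitals. HERPUD1 has an ATF4-CHOP element on the reverse strand and then an ERSE-II, XBP1 and HSPA5 have an ERSE, CRELD2 has an ERSE and SDF2L1 an ERSE-II on the reverse strand, and CHAC1 has an ATF4-CHOP element on the reverse strand.
HERPUD1 (chr16:56931945-56932055, + strand): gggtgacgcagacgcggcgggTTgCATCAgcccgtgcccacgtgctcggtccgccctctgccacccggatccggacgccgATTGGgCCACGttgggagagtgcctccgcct
XBP1 (chr22:28800583-28800641, - strand): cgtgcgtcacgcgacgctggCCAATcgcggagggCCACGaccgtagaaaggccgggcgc
HSPA5 (chr9:125241371-125241429, - strand): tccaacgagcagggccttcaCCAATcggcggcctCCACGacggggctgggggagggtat
CRELD2 (chr22:49918534-49918592, + strand): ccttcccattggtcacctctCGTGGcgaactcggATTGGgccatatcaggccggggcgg
SDF2L1 (chr22:21642094-21642144, + strand): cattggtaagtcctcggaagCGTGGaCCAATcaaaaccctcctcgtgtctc
CHAC1 (chr15:40953241-40953289, + strand): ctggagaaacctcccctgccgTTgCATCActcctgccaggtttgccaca
Their log2 differences were 1.21, 1.19, 0.49, 0.41, 0.47 and 0.35 in the order shown.

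NMD substrates were called higher more often than lower in the line with added UPF1-1. Of 23 fitted substrate mRNAs 12 were called higher (52.2%) and 1 lower (4.35%), beside 8.38% and 7.79% of all genes. The median of the substrates was 0.31. Of the 12, 5 are also in the list of stress response regulators (PPP1R15A, DDIT3, ATF3, SESN2 and ATF4), and all 5 shared members were called higher. The 18 substrates outside that list had 7 called higher and 1 lower, with a median of 0.19. GADD45A, a growth arrest gene, was at 2.73, 3.16 and 4.28 TPM in GFP and at 6.80, 6.01 and 7.80 TPM in UPF1-1, with no overlap, and rose by 0.85. EIF4A2, an RNA helicase of translation initiation, was at 11.2, 11.2 and 11.9 TPM in GFP and at 17.4, 16.9 and 16.9 TPM in UPF1-1, and rose by 0.46. It lies on chromosome 3, of which 1 block was shifted, and its own block is not given here. With chromosome medians set equal EIF4A2 was at 0.47, but that setting does not remove a shift of 1 block. TBL2, an ER membrane protein, rose by 0.38, RASSF1, a tumour suppressor of the Ras pathway, by 0.35 and GADD45B by 0.32. ARFRP1 (0.68) and PDRG1 (0.42) lie on chromosome 20, and ARFRP1 did not pass with chromosome medians set equal (0.31, adjusted p 0.19). The splicing factor gene SRSF3 fell by 0.19, while SRSF2 (-0.17), SMG1 (-0.31) and UPF2 (-0.25) did not pass. Leaving out replicate 1, 2 or 3 gave 9, 6 and 10 substrates called higher, and no centring gave 7.

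Spliced RNAs that carry small nucleolar RNAs in their introns are another class of NMD targets, because their short reading frames stop early. Of 14 fitted hosts 6 were called higher (42.9%) and 1 lower (7.14%), beside 8.38% and 7.79% of all genes. The median of the hosts was 0.03. GAS5 was at 62.6, 66.1 and 60.2 TPM in GFP and at 106, 89.9 and 87.9 TPM in UPF1-1. Every UPF1-1 library lay above every GFP library as measured, while the centred groups overlapped, and GAS5 rose by 0.49 (adjusted p 0.0014). SNHG15 was at 17.7, 19.0 and 17.7 TPM against 31.6, 28.4 and 27.4 TPM, and rose by 0.58. SNHG1 rose by 0.54, SNHG7 by 0.38 and EPB41L4A-AS1 by 0.23. ZFAS1, at 0.52, lies on chromosome 20 and did not pass with chromosome medians set equal (0.15, adjusted p 0.076). DANCR fell by 0.35, and SNHG3 (-0.20), SNHG5 (-0.15) and SNHG8 (-0.26) were lower without passing.

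Of 16 fitted NMD factors other than UPF1, 1 was called higher and 2 lower, beside 8.38% and 7.79% of all genes. These were SMG9, UPF3B and GNL2 (-0.23). SMG9, a subunit of the SMG1 kinase complex, was at 4.24, 4.75 and 9.07 TPM in GFP and at 9.51, 9.30 and 19.2 TPM in UPF1-1. It rose by 0.92 ± 0.06 (adjusted p 6.47e-05) and the libraries did not overlap. UPF3B, which links UPF2 to the exon junction complex, was at 0.904, 0.831 and 1.76 TPM in GFP and at 0.585, 0.513 and 1.10 TPM in UPF1-1. The centred groups did not overlap, and the fall of 0.51 lost its call without replicate 2, without replicate 3 and without replicate 3 of either group alone. UPF3A (-0.32), SMG5 (0.15) and SMG6 (0.19) did not pass. Of 9 exon junction proteins, only EIF4A3, its RNA-clamping helicase, was called, at -0.22.

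Lists of general mRNA decay are given with their shares of called genes, beside 8.38% higher and 7.79% lower over all genes. DCP2, which removes the cap, was at 5.09, 5.70 and 6.03 TPM in GFP and at 3.50, 3.57 and 3.13 TPM in UPF1-1, and every UPF1-1 library lay below every GFP library. It fell by 0.73 ± 0.08 (adjusted p 0.0011). XRN1, the cytoplasmic 5′-to-3′ exonuclease, was at 1.04, 1.13 and 1.19 TPM against 0.796, 0.736 and 0.661 TPM, and fell by 0.48, a call lost without replicate 2 or 3 of every group. In the decapping list as a whole 2 of 20 were called in each direction (10.0% each). Both called higher, LSM14B (0.50) and the nuclear exonuclease XRN2 (0.41), lie on chromosome 20 and did not pass with chromosome medians set equal. Of 18 exosome and Ski genes 2 were called higher (11.1%) and 3 lower (16.7%). TTC37, a scaffold of the Ski complex, fell by 0.60, the exosome nuclease DIS3 by 0.38 and the exosome core subunit EXOSC9 by 0.36. EXOSC6 (0.38) and DIS3L (0.29) rose. Among 14 deadenylation genes 0 were called higher and 1 (7.14%), CNOT6L at -0.31, was called lower. In the microRNA pathway 0 of 12 were called higher and 3 lower, namely TNRC6A (GW182) at -0.71, DICER1 at -0.51 and AGO4 at -0.32. DICER1 lost its call without replicate 2 of every group and TNRC6A in 5 of the 9 fits that left libraries out. With no centring DCP2 passed (adjusted p 0.032), and XRN1, DICER1, TNRC6A and UPF3B did not (0.14, 0.19, 0.070 and 0.12).

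Replication-dependent histone mRNAs end in a stem-loop in place of a poly(A) tail and are degraded with the help of UPF1 when DNA synthesis ends. Most that were called rose, but the histone genes with the largest changes fell. Of 48 fitted histone genes 23 were called higher (47.9%) and 4 lower (8.33%), beside 8.38% and 7.79% of all genes. The median of the histone genes was 0.24. The rises spanned the classes, with 1 of 4 H1 genes, 7 of 12 H2A, 4 of 15 H2B, 5 of 9 H3 and 6 of 8 H4. HIST1H2AD was at 153, 163 and 192 TPM in GFP and at 251, 239 and 325 TPM in UPF1-1, and rose by 0.59. HIST1H2AI, at 548, 576 and 560 TPM, reached 814, 766 and 786 TPM and rose by 0.40, with groups that overlapped after centring. HIST1H3F was at 7.71, 8.57 and 5.98 TPM against 22.6, 21.9 and 15.3 TPM, the largest rise of the list at 1.27.

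All 4 histone genes called lower encode H2A or H2B. HIST1H2BI was at 8.55, 9.96 and 9.33 TPM in GFP and at 1.73, 1.71 and 2.19 TPM in UPF1-1, and fell by 2.13 ± 0.10 (adjusted p 1.28e-05). HIST1H2AL was at 30.9, 33.5 and 42.6 TPM against 14.6, 14.5 and 20.5 TPM, and fell by 1.18. HIST1H2BG fell by 0.81 and HIST1H2AE by 0.61. All 4 passed with no centring, and 4 were called lower without replicate 1, 2 or 3. Leaving out replicate 2 of every group left 3 histone genes called higher, against 16 and 22 without replicate 1 or 3. Against the same GFP libraries, HIST1H2BI was 1.14 lower and HIST1H2AL 1.55 lower in UPF1-2, while HIST1H2BG and HIST1H2AE differed from GFP by -0.05 and -0.01. Histone genes have near-identical copies, so the split of reads between single genes is uncertain.

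**Figure D5:**
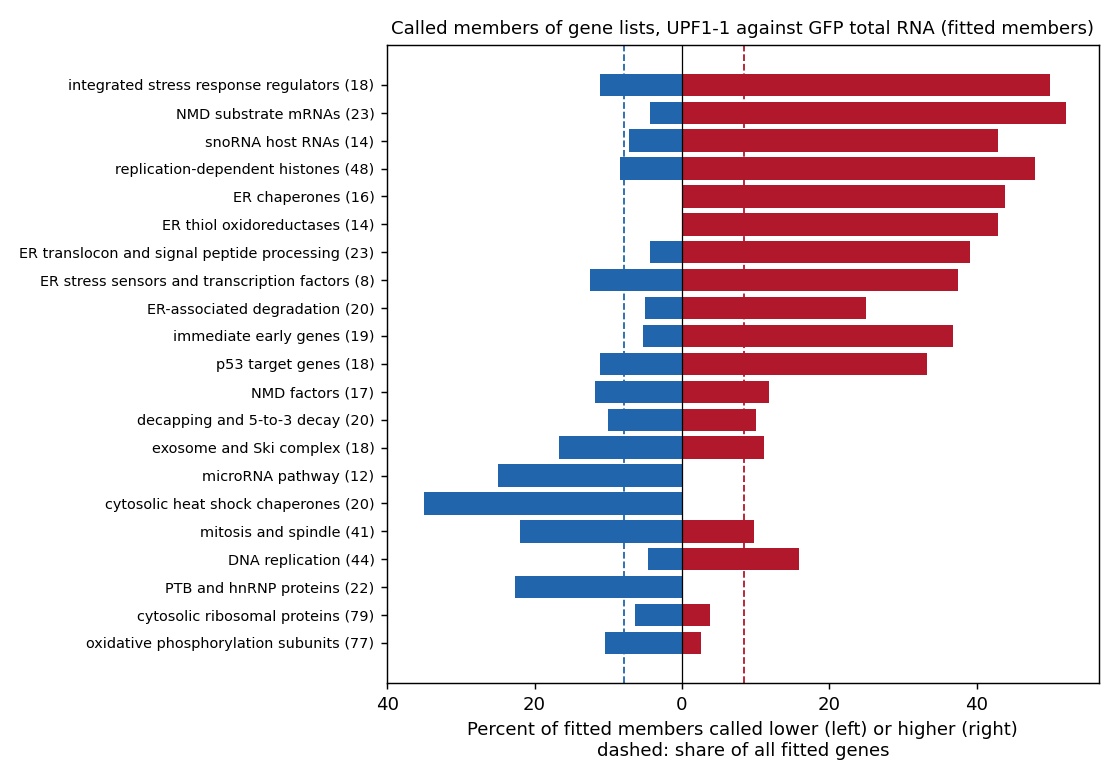
Percent of the fitted members of 21 gene lists called higher (right, red) or lower (left, blue) in UPF1-1 against GFP total RNA (x axis), with the number of fitted members after each name and dashed lines at the shares of all fitted genes, 8.38% and 7.79%. Stress response, NMD substrate, ER and histone lists reach to the right, and cytosolic heat shock chaperones reach to the left with 0 of 20 called higher.

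Further stress and signalling lists were described in the same way, beside 8.38% higher and 7.79% lower over all genes. Of 19 immediate early genes, which growth and stress signals induce quickly, 7 were called higher and 1 lower, with a median of 0.20. TNFRSF12A (1.04, on chromosome 16), EGR1 (0.52), DUSP1 (0.39), JUNB (0.38) and IER2 (0.38) rose, and MYC fell by 0.26. Without replicate 2 only 1 of the 7 was called. Of 18 p53 targets 6 were called higher and 2 lower. CDKN1A, which encodes the cell cycle inhibitor p21, was at 5.01, 4.95 and 7.75 TPM in GFP and at 8.94, 7.91 and 12.6 TPM in UPF1-1, and rose by 0.60, while CCNG1 fell by 0.42 and RRM2B by 0.46. HMOX1, heme oxygenase, rose by 0.67, and 2 of 12 NRF2 targets were called higher and 1 lower. The other one, SRXN1, lies on chromosome 20.

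ID2, an inhibitor of basic helix-loop-helix transcription factors, was at 18.1, 19.7 and 14.5 TPM in GFP and at 10.8, 10.8 and 8.58 TPM in UPF1-1. All UPF1-1 libraries lay below all GFP libraries, and ID2 fell by 0.85 ± 0.06 (adjusted p 9.16e-05). ID3 fell by 0.39, and 0 of 8 genes of this list were called higher. Of 20 cytosolic heat shock chaperones, many of them targets of the heat shock factor HSF1, 0 were called higher and 7 lower. The median was -0.08. HSP90AA1 was at 59.8, 63.5 and 112 TPM in GFP and at 48.3, 52.0 and 77.2 TPM in UPF1-1. The centred groups did not overlap and it fell by 0.46. HSPA4L fell by 0.45, HSPB1 by 0.44, CHORDC1 by 0.35 and HSPA8 by 0.34. With no centring 0 of the 7 passed.

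Autophagy genes split, with 4 of 27 called higher and 3 lower. WIPI1, which binds the early autophagosome membrane, rose by 0.44 and the initiating kinase gene ULK2 fell by 0.73. Glycolysis and hypoxia genes had 2 of 25 called higher and 1 lower, with lactate dehydrogenase LDHA at -0.32. Genes of cholesterol and fatty acid synthesis had 1 higher and 3 lower of 25, the latter SCD (-0.35), HMGCS1 (-0.30) and FASN (-0.29). Over all genes 8.38% were called higher and 7.79% lower.

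Among cell cycle genes, most mitosis genes that passed fell, and several that rose lie on chromosome 20. Of 41 mitosis genes 4 were called higher (9.76%) and 9 lower (22.0%), with a median of -0.07, beside 8.38% and 7.79% of all genes. CENPF, a kinetochore protein, was at 2.30, 2.63 and 4.23 TPM in GFP and at 1.55, 1.48 and 2.35 TPM in UPF1-1, and fell by 0.70. The spindle protein ASPM fell by 0.56, the kinesin KIF14 by 0.48, the cytokinesis factor ECT2 by 0.41 and the proliferation marker MKI67 by 0.41. Of the 4 called higher, UBE2C (0.83), AURKA (0.57) and TPX2 (0.40) lie on chromosome 20, and AURKB (0.25) does not. With chromosome medians set equal UBE2C passed at 0.47, while AURKA (0.21, adjusted p 0.32) and TPX2 (0.03, adjusted p 0.67) did not. Of 44 DNA replication genes 7 were called higher (15.9%) and 2 lower (4.55%), and with chromosome medians set equal 3 and 2. Of the 7, PCNA and GINS1 (0.21) lie on chromosome 20. PCNA, the sliding clamp of the replication fork, was at 80.0, 87.0 and 61.5 TPM in GFP and at 132, 129 and 85.4 TPM in UPF1-1, with overlap between the groups. It lies on chromosome 20, and its difference of 0.50 became 0.13 with chromosome medians set equal (adjusted p 0.28). TYMS (0.38) is on chromosome 18, ORC6 (0.40) and GINS3 (0.35) are on chromosome 16, and RFC4 (0.34) is on chromosome 3. ORC1, of the origin recognition complex, fell by 0.37.

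RNA-binding proteins of splicing mostly did not pass. Of 22 PTB and hnRNP genes 0 were called higher and 5 lower, with a median of -0.12, led by HNRNPA3 (-0.46) and SYNCRIP (-0.38). Among 14 SR protein genes SRSF3 alone was called. Of 22 genes of the spliceosome core 3 were called higher (13.6%) and 2 lower (9.09%), beside 8.38% and 7.79% of all genes. SNRPA1, a U2 snRNP protein, was at 13.7, 13.5 and 26.5 TPM in GFP and at 10.3, 10.2 and 16.5 TPM in UPF1-1, and fell by 0.57. SNRPB2 (0.61) and SNRPB (0.34) lie on chromosome 20, and U2AF1 (-0.30) on chromosome 21. With chromosome medians set equal SNRPB2 passed at 0.25, and SNRPB (-0.03) and U2AF1 (-0.07) did not.

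Counts of translation genes depended on the scaling. Of 65 translation factors 6 were called higher (9.23%) and 7 lower (10.8%), beside 8.38% and 7.79% of all genes. Of the 6 called higher, 3 lie on chromosome 20. With upper quartiles set equal there were 6 higher and 15 lower, and with no centring 3 and 0. EIF2B5 (0.62), the catalytic subunit of the eIF2 exchange factor, is at the start of the shifted block of chromosome 3, and EIF6 (0.48) lies on chromosome 20. EIF5B, which joins the ribosomal subunits, fell by 0.56 and EIF3A by 0.37. Cytosolic ribosomal proteins had 3 of 79 called higher and 5 lower, with a median of -0.13. With upper quartiles set equal 2 were higher and 13 lower, and with no centring 2 and 0. The lowest called were RPL34 (-0.30) and RPL38 (-0.25), and RPS28 was highest at 0.42. RPS21 (0.38), on chromosome 20, was at 0.01 with chromosome medians set equal. Ribosome biogenesis had 1 of 36 higher and 4 lower, including NOP58 (-0.39), FBL (-0.35) and NCL (-0.29). Among 74 mitochondrial ribosomal proteins 1 was called higher, MRPS26 on chromosome 20 (0.54), and 3 lower. Oxidative phosphorylation subunits had 2 of 77 called higher and 8 lower, with a median of -0.10. ATP5O (-0.39) and ATP5J (-0.29) lie on chromosome 21 and did not pass with chromosome medians set equal (adjusted p 0.091 and 0.50), and NDUFV2 (0.26), on chromosome 18, did not pass either. Proteasome subunits had 3 of 34 called higher (8.82%) and 1 lower (2.94%), with PSMA7 (0.31) on chromosome 20.

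Large gene families served as a further view. Of 240 numbered zinc finger genes 21 were called higher (8.75%) and 16 lower (6.67%), near the 8.38% and 7.79% of all genes. Of the 21, 4 lie on chromosome 20, and with chromosome medians set equal 11 were called higher and 15 lower. ZNF480 (-0.69), ZNF726 (-0.61) and ZNF260 (-0.56), all on chromosome 19, were the lowest called, and ZNF232 (0.58) the highest. Numbered TMEM genes had 10 of 100 higher (10.0%, 2 of them on chromosome 20) and 5 lower (5.0%), and solute carriers 2 of 84 higher (2.38%) and 5 lower (5.95%). DEAD and DEAH helicases had 5 of 46 higher (10.9%, 1 on chromosome 20) and 4 lower (8.7%), all within 0.42 of 0. Genes named as intergenic or antisense RNAs had 11 of 104 higher (10.6%, 1 on chromosome 20) and 6 lower (5.77%). The use of strand in counting is not given in the sources used here, so an antisense RNA and its partner cannot be told apart. Protein-coding genes had 716 of 8444 called higher (8.48%) and 657 lower (7.78%), and long noncoding RNAs 24 (9.06%) and 21 (7.92%) of 265, both near the shares of all genes. Pseudogenes had 2 (1.82%) and 11 (10.0%) of 110.

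Called genes also differed by the length of the gene. Genes were divided into 5 groups of equal number by their span in the RefSeq annotation of GRCh38.p14. In the shortest group, up to 8806 bases, 230 of 1785 genes were called higher and 77 lower, with a median of 0.04. In the longest, from 81674 bases, 66 of 1784 were called higher and 225 lower, with a median of -0.08. The medians of the 5 groups fell in order from the shortest to the longest, and in each pair the shortest group had a higher median than the longest (0.03, 0.02 and 0.07 against -0.08, -0.06 and -0.10). Without chromosome 20 the medians of the shortest and longest were 0.03 and -0.08. By level, genes under 2 TPM had 166 called higher and 255 lower of 3313, and genes of 5 to 20 TPM 258 higher and 146 lower of 2301.

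The purified RNA of the UPF1-2 line, which the contrast did not use, gave another readout of the same genes. Recovery is the log2 ratio of TPM in the purified RNA to TPM in total RNA, relative to all genes. Genes called lower had a median recovery of 0.37, with 0.42, 0.36 and 0.36 in replicates 1, 2 and 3. Those called higher had a median of -0.06, and of -0.08 without chromosome 20, and genes not called one of -0.03. The quartiles were wide, from -0.22 to 0.89 among genes called lower and from -0.76 to 0.56 among genes called higher. Single genes varied in both directions. Among genes that rose, recovery was 1.93 for SMG9, 1.26 for DDIT3, 1.13 for ATF3 and 0.90 for TRIB3, and -0.09 for XBP1, -1.11 for HERPUD1, -1.65 for HSPA5 and -2.03 for HIST1H3F. Among genes that fell it was 1.12 for DCP2 and 1.49 for XRN1, and -1.97 for HIST1H2BI and -0.17 for ID2. RNA purified from GFP cells was not analysed here, so a share of the recovery may be unspecific. Level and gene length were not matched between these sets.

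Total RNA of the isoform lines is set side by side here for genes already described. These genes were chosen for their change in UPF1-1, and the same UPF1-1 libraries enter both contrasts, so the values are a description with no test. UPF1-1 minus UPF1-2 was 0.86 for TRIB3, 0.92 for PPP1R15A, 0.88 for HERPUD1, 0.96 for XBP1 and 0.80 for ATF3. It was smaller for HSPA5 (0.28), SDF2L1 (0.28), CREB3 (0.24), ATF4 (0.03) and TMX4 (0.03). For SMG9 it was 0.98, for DCP2 -0.74 and for GAS5 0.18. Against GFP libraries that both comparisons share, list medians were 0.30 in UPF1-1 and 0.14 in UPF1-2 for stress response regulators and 0.31 and 0.15 for NMD substrates. They were 0.20 and 0.10 for ER chaperones, 0.24 and -0.09 for histones and 0.03 and 0.20 for snoRNA hosts. UPF1 itself was 0.31 ± 0.07 higher in UPF1-1 than in UPF1-2 (limma adjusted p 0.036), and the part of that higher level in the other differences was not tested.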

How the data were processed

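Total RNA of the UPF1-1, UPF1-2 and GFP lines was depleted of ribosomal RNA and sequenced, per the labels' protocols. The submitters' processing notes name kallisto, cutadapt, sleuth and the build hg19, with no versions. The authors deposited TPM values for 1 transcript of each gene and library, and natural log means of estimated counts. Their fold and q columns were not used. log2(TPM + 0.5) was fitted with limma 3.58.1 in R 4.3.3, with trend, on the 9 total RNA libraries, after library medians were set equal, for genes at 1 TPM or more in at least 3 libraries. P-values were adjusted by Benjamini-Hochberg over all fitted genes, with a threshold of 0.05. The script was tested on simulated data.

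The replicate number was a block. Deviations from group means correlated at 0.70 to 0.95 over the 9 pairs of libraries with the same number. Replicates 1 and 2 also deviated together (0.64 to 0.80), and replicate 3 opposite to both (at most -0.72).

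The naming rule took UPF1, and the 12 largest rises and 12 largest falls at a mean of 5 TPM or more with the same sign in all pairs. It also took up to 5 called genes per direction of each of 44 lists, not all of which are named in the text. Members whose role is explained were described as well. The contrast and the lists were chosen with earlier results of these data known. No depth per library is given, so TPM carries no counting interval. Single values of some list members are not reported here.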

Additional observations from a re-analysis of the deposited data

How the results depend on the processing

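Of 1507 genes called (781 higher and 726 lower), the pairing carried most. Without the replicate block 16 were called (11 higher and 5 lower), and without block and centring 2. With the replicate block and no centring 301 were called (266 higher and 35 lower), with an all-gene median of 0.07 against -0.01, and with upper quartiles set equal 1614 (638 and 976). A filter of 5 TPM gave 715 of 3777 genes, and a fit of the 6 UPF1-1 and GFP libraries alone 2556 of 8271, of which 1445 were among the 1507. The pseudocounts of 0.1 and 1 gave 1443 and 1531 calls, and no filter 1556. Leaving out a replicate number or a library gave 206 to 1141 calls. UPF1 was called under all 19 alternatives. Of 237 genes chosen by the naming rule, some of them not named in the text, 64 were called in all 9 fits that left libraries out. With no centring 87 of them were called, 9 without the block and 181 with chromosome medians set equal, an alternative chosen after the data were seen. There, 7 of the 237, all on chromosome 20 and called higher as reported, turned to the other side of 0. Chromosome 20 genes outside the 237 were not counted. The 7 were DDX27 (-0.0777), EIF2S2 (-0.00387), PSMA7 (-0.0529), SNRPB (-0.0289), SRXN1 (-0.0682), TMEM230 (-0.0765) and TMX4 (-0.0226). That alternative subtracts the chromosome's median by construction, and for the others the cause was not tested. The smallest difference called was 0.17, with a median SE of 0.08, and several larger ones did not pass.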

Other observations

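Among RNAs that stay in the nucleus, MALAT1, an abundant long noncoding RNA of nuclear speckles, fell by 0.38 in UPF1-1, and 0 of 5 in the list rose. Of 19 nuclear pore genes 2 were called higher (10.5%) and 0 lower, with a median of -0.07. Pseudogene transcripts had 2 of 110 called higher (1.82%) and 11 lower (10.0%), while transcribed pseudogenes had 12 of 91 called higher (13.2%) and 5 lower (5.49%). Over all genes the shares were 8.38% and 7.79%. RefSeq gives both classes, and reads of a pseudogene and its parent gene could be split between them.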
